A study of Homo sapiens with 21 samples.

Results

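The libraries labelled shARID1A.4 are 3 of the 21 RNA-Seq libraries made from SK-N-BE(2), an established human neuroblastoma cell line with many copies of the MYCN oncogene. The cells were given a lentivirus that encodes a short hairpin RNA (shRNA, which lowers the level of a matching transcript), and polyadenylated RNA was sequenced in biological triplicates 72 h later. They are compared with the 3 Control libraries, whose cells received a non-silencing shRNA, and with the 3 libraries labelled shARID1A.2, the other condition that carries the treatment label ARID1A silencing. The other 4 conditions are shARID1B.2 and shARID1B.3, labelled as ARID1B silencing, and shARID1A/B.2.3 and shARID1A/B.4.2, labelled as silencing of both. All cells of the series were transduced and grown in the same serum-rich medium with insulin, transferrin and selenium, and the labels name no clones.

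ARID1A and ARID1B are large, mutually exclusive subunits of the BAF complex, one of the mSWI/SNF assemblies that use ATP to move nucleosomes and keep regulatory DNA accessible. A BAF complex holds either ARID1A or ARID1B, and each can partly stand in for the other. In neuroblastoma, a childhood tumour of the sympathetic nervous system, cells are often described along an axis from an adrenergic state, with catecholamine enzymes and the factors that drive them, to a mesenchymal state, with matrix, adhesion and migration genes.

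Both ARID genes were low in the libraries labelled shARID1A.4. The values given here are the deposited ones, that is, the reads on a gene divided by a size factor for the library. ARID1A (chr1:26693236-26782110, GRCh38) was 6097, 6374 and 6463 in Control replicates 1, 2 and 3, and 2289, 2157 and 2284 in the shARID1A.4 replicates. All shARID1A.4 libraries lay far below all Control libraries. The log2 difference was -1.49 ± 0.03 (SE), with an adjusted p of 2.00e-23 (limma, all genes tested). ARID1B (chr6:156776020-157210779) was 5793, 5804 and 5791 in the Control libraries and 3065, 3109.7 and 3126 in the shARID1A.4 libraries. This gene, which the label does not name as a target, was lower by -0.90 ± 0.02 (SE) on the log2 scale, with an adjusted p of 3.95e-21 in limma.

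**Figure D1:**
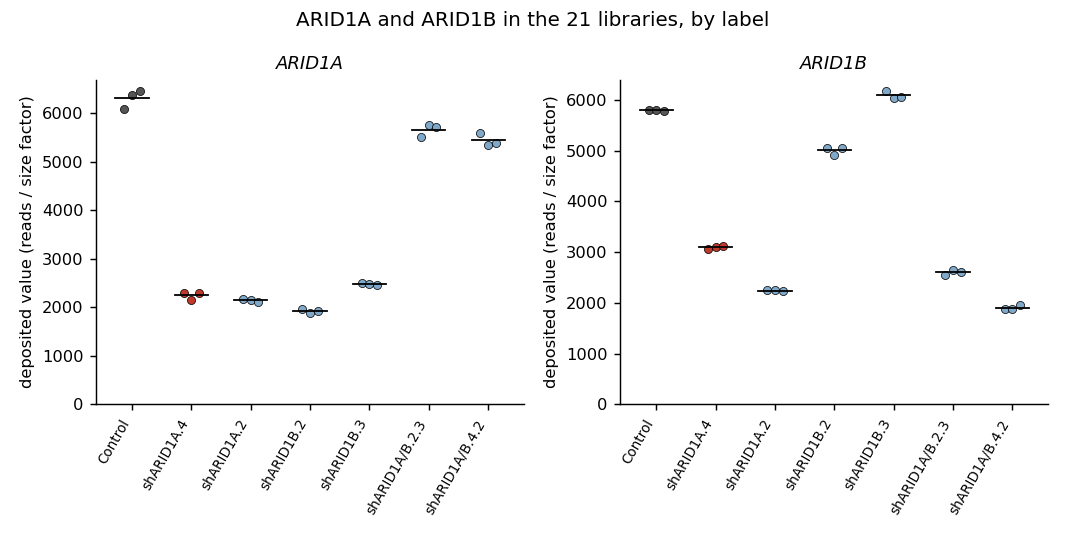
Deposited values (reads divided by the library's size factor) of ARID1A and ARID1B in each of the 21 libraries, with 1 point a library and a bar at the mean of each labelled condition. In shARID1A.4 (red), ARID1A lies at 2157 to 2289 and ARID1B at 3065 to 3126, both below the Control libraries (grey).

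Across the series the names and the levels of the targets did not go together. Both genes were low in shARID1A.4 and in shARID1A.2, where the means were 2146 for ARID1A and 2241 for ARID1B. In the conditions labelled shARID1B it was ARID1A that was lowest, with means of 1920.4 and 2479, while ARID1B stood at 5004 and 6091. In those labelled shARID1A/B, ARID1B was low at 2599 and 1907, and ARID1A stood at 5659 and 5440.0. The names are used below as the labels give them, and "shARID1A.4" means the libraries so labelled, in which both transcripts were low. Of the pair labelled as ARID1A silencing, ARID1A differed little, by 0.06 ± 0.03 (SE, adjusted p of 0.0495, limma), and ARID1B was higher in shARID1A.4 than in shARID1A.2 by 0.47 ± 0.02 (adjusted p of 2.03e-15).

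Depth was even, with 30002640 to 36062937 reads in the shARID1A.4 libraries and 30579746 to 34973565 in the Control libraries. Mitochondrial genes took 6.96 to 7.31% of the reads in shARID1A.4 and 6.35 to 6.63% in Control, and the 100 most abundant genes of each library took 22.2 to 22.9% and 19.0 to 19.4%. The lowest value of any of 10 neuroblast markers in any of the 21 libraries was 107, that of DBH in shARID1A.2, and the Schwann cell factors SOX10 and FOXD3 were at 0 in all 6. Summed Schwannian markers were 234 to 267 in shARID1A.4 and 143 to 169 in Control, and summed kidney epithelial markers, included because HEK293T cells made the virus, were 239 to 266 and 215 to 251.

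Most genes differed between shARID1A.4 and Control. Of 18584 genes tested, 6879 were higher and 6803 lower at an adjusted p under 0.05, which is 37% and 36.6% of the genes tested, and the median log2 difference of all genes was 0.02. Nearly any list would hold many such genes. For many lists, counts are therefore also given for changes over 2-fold, a log2 difference beyond 1 at the same adjusted p. By that rule 1732 genes rose (9.32%) and 2237 fell (12%). With the cutoffs of 1.5 and 0.001, 693 rose and 929 fell. Protein-coding genes fell over 2-fold more often than they rose (1815 against 1116 of 14404), whereas long non-coding RNAs rose more often than they fell (460 against 301 of 2762). The replicates measure the spread between these triplicate libraries, and a lower level per cell cannot be told apart from fewer cells that carry a transcript.

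The 8 largest rises were those of MARCOL, NIBAN1, NPTX1, CHAC1, GDF15, HMOX1, ULBP1 and ADM2. They were taken among called protein-coding genes with a mean value of at least 100 and groups that do not overlap. NPTX1, a secreted pentraxin of synapses, was 31.7, 42.5 and 37 in Control and 2493, 2658 and 2579 in shARID1A.4, a 69.5-fold rise of the mean. NIBAN1, a gene induced in stressed cells, went from 10.6, 6.72 and 5.14 to 549.7, 609 and 559. That the groups lie apart is part of this rule and no further result. MARCOL was close to the detection limit in Control, at 0, 4.48 and 2.05, and stood at 201, 206 and 203 in shARID1A.4, so no fold change is given for it. ULBP1, a stress ligand read by natural killer cells, rose 27.5-fold, the hormone gene ADM2 rose 17.2-fold, and HMOX1, the haem-degrading enzyme haem oxygenase 1, rose 19.6-fold from 108, 89.5 and 99.6 to 1876, 2025 and 1923. CHAC1 and GDF15, the remaining genes among the 8 largest rises, belong to the amino acid stress group below.

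The 8 largest falls by the same rule were those of CELF2, XKR5, EDN3, ANKRD1, HGF, RBM24, ENTPD3 and ANGPT2. CELF2, a splicing regulator (chr10:10798397-11336675), was 788, 711 and 715 in Control and 18.4, 16.6 and 16 in shARID1A.4, which is 43.3-fold lower. EDN3, an endothelin that acts on neural crest cells, fell from 1855, 1751 and 1822 to 99, 113 and 90.8. HGF, the ligand of the MET receptor, fell from 1218, 1188 and 1229 to 71.9, 83.2 and 78.8. Here too the rule asked for groups that do not overlap. ANKRD1, a nuclear ankyrin-repeat protein and a target of YAP1, fell 17.8-fold, XKR5 fell 28.3-fold, the nucleotide hydrolase ENTPD3 fell 15-fold, RBM24, another RNA-binding protein, fell 16.1-fold and the angiopoietin ANGPT2 fell 14-fold. Over all gene types the fitted fall was largest in the long non-coding RNA TMEM108-AS1, a gene picked after its values were seen, at 762, 813 and 741 in Control and 11.7, 3.57 and 8.98 in shARID1A.4. It runs opposite to TMEM108, which fell by -0.99 ± 0.03 (SE) on the log2 scale, and how strand was treated in counting is not given in the sources used here.

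HNRNPA1 and MYCN, a pair of abundant transcripts, moved in opposite directions. HNRNPA1 (chr12:54280193-54287088), a nuclear RNA-binding protein that steers splicing, was 81210.2, 79297 and 81384 in Control and 6516, 6444 and 6618 in shARID1A.4. The fall was 12.4-fold, a log2 difference of -3.63 ± 0.02 (SE, adjusted p of 8.24e-33, limma), which is larger than that of either ARID gene. HNRNPA1 was named after its values were seen, and it shares near-identical sequence with processed copies, so reads of its relatives are uncertain. Its close copy HNRNPA1L2 read 475 in Control and 151 in shARID1A.4. The more distant family members moved less, with log2 differences of -0.70 for HNRNPA0, -0.50 for HNRNPA2B1, 0.17 for HNRNPA3 and 0.06 for HNRNPAB. By condition, HNRNPA1 had means of 6526 in shARID1A.4 and 7121 in shARID1A/B.2.3, against 75244 in shARID1A/B.4.2, 80630.4 in Control, 83061 in shARID1B.3, 108737 in shARID1B.2 and 113052 in shARID1A.2. It was thus low in 2 of the 7 conditions, and not in the other one that carries the same treatment label.

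MYCN (chr2:15940564-15947007), the amplified transcription factor of this cell line, was 120355, 123481 and 124192 in Control and 416868, 426870.0 and 410526 in shARID1A.4. The rise was 3.41-fold, 1.77 ± 0.03 (SE) on the log2 scale, with an adjusted p of 9.49e-25 in limma. MYCN reads made up 1.17 to 1.20% of all reads in the shARID1A.4 libraries and 0.335 to 0.347% in Control. Genes beside it moved less. DDX1 differed by 0.07 and NBAS by 0.42 on the log2 scale, and MYCNOS, which overlaps MYCN on the other strand, rose by 0.55. Of its relatives, MYCL rose 2.88-fold, the partner MAX rose 1.41-fold, and MYC, which is barely expressed in these cells, went from 29.4, 36.9 and 41.1 to 15.5, 28.5 and 25.9. The other conditions had MYCN means of 218568 in shARID1A/B.2.3, 157306 in shARID1B.3, 93294 in shARID1A.2, 85143 in shARID1A/B.4.2 and 79339 in shARID1B.2, so shARID1A.4 was the highest of the series.

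**Figure D2:**
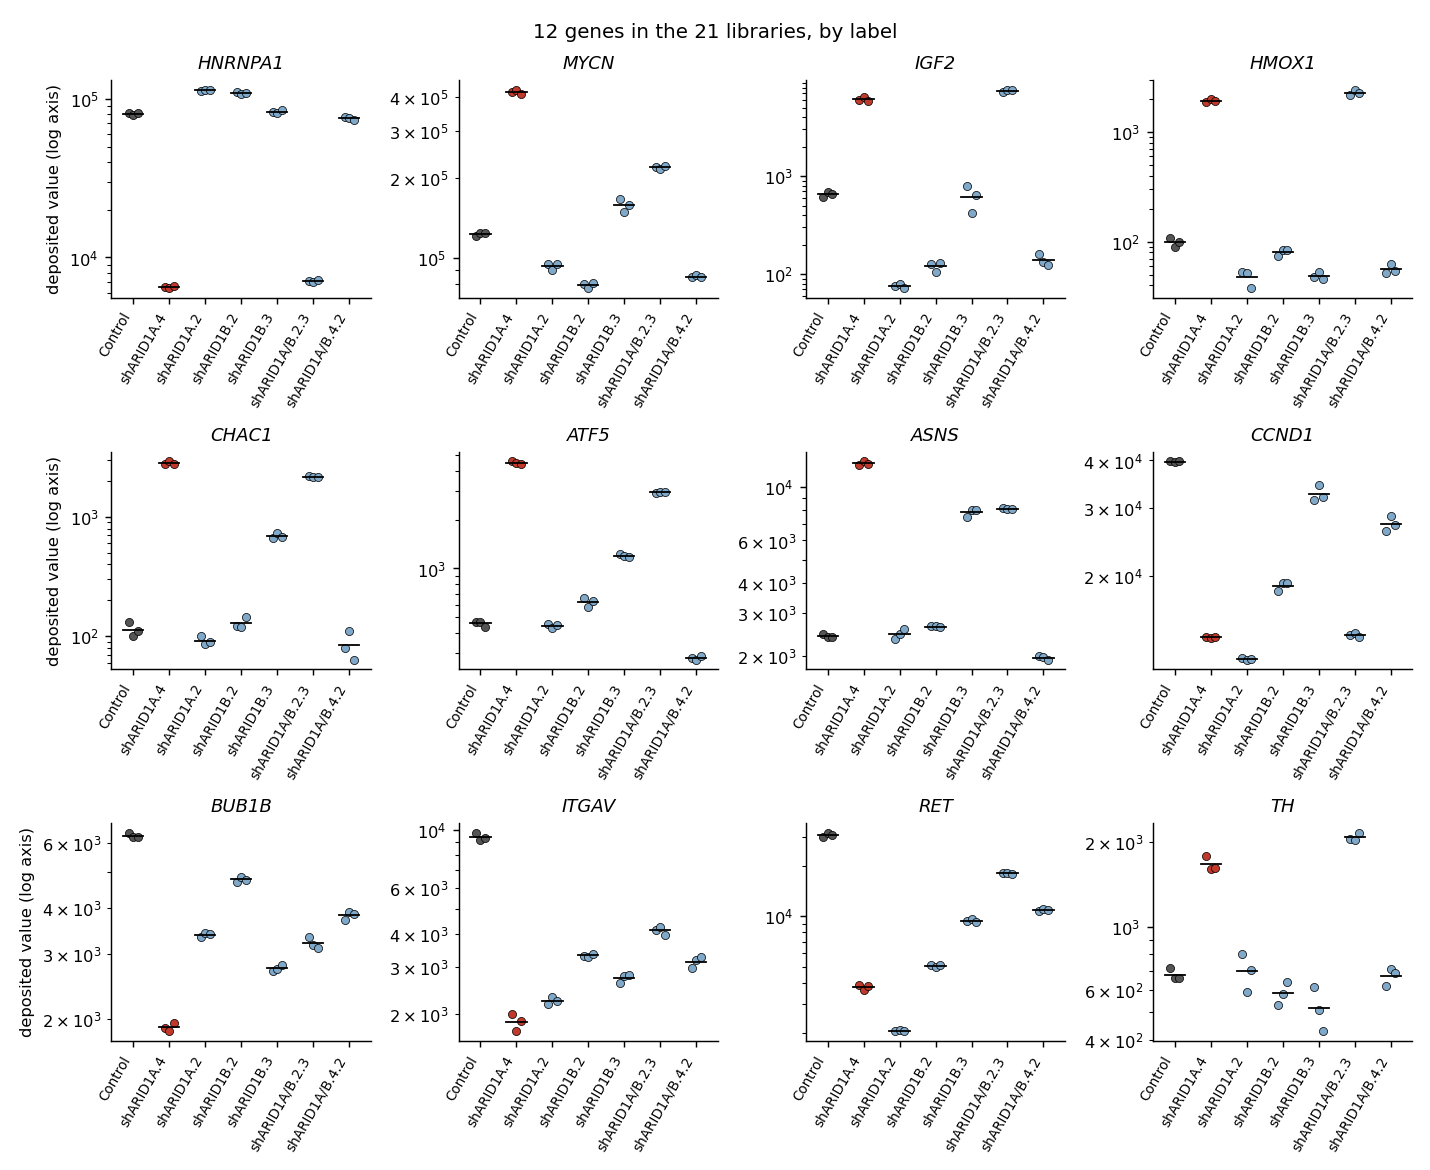
Deposited values (log axes, 1 point a library, bar at the mean) of 12 genes in the 7 labelled conditions, with Control in grey and shARID1A.4 in red. HNRNPA1 is low and HMOX1, IGF2 and CHAC1 are high in shARID1A.4 and in shARID1A/B.2.3, while MYCN is highest in shARID1A.4 at 410526 to 426870.

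Most genes that the transcription factor ATF4 induces, when cells run short of amino acids or the integrated stress response is switched on, rose. Of 33 such genes tested, 31 rose and 2 fell, 25 of them rising over 2-fold against a background of 9.32%. The median log2 difference was 1.66, beside 0.02 over all genes. In the other conditions the median of this list against Control was 1.35 in shARID1A/B.2.3 and 0.83 in shARID1B.3. It was -0.29 in shARID1A.2, -0.29 in shARID1B.2 and -0.26 in shARID1A/B.4.2. ATF4 itself, which is controlled largely at translation, rose modestly, from 14450.4, 14224 and 14703 to 22319, 23393 and 22249 (1.57-fold). CHAC1, an enzyme that breaks down glutathione, was 130.4, 99.6 and 109.9 in Control and 2803, 2927 and 2780.3 in shARID1A.4, and rose 25-fold. The secreted stress hormone GDF15 rose from 21.1, 12.3 and 8.22 to 249, 287 and 304. Both are among the largest rises, whose rule asked for groups that do not overlap.

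Other parts of this response rose with them. Among regulators, SESN2, a leucine sensor that restrains mTORC1, rose 11.5-fold, NUPR1 rose 10.3-fold, the transcription factor ATF5 rose 9.72-fold from 467, 471 and 439 to 4561, 4440.3 and 4380.1, and DDIT3, which encodes CHOP, rose 5.31-fold. Among amino acid transporters, the cystine carrier SLC7A11 rose 10.5-fold, from 612, 585 and 608 to 6568, 5889.9 and 6435, and the glycine carrier SLC6A9 rose 8.96-fold. ASNS, which makes asparagine, rose 5.19-fold, from 2470.1, 2388 and 2383 to 12341, 12748 and 12499.5. The members that went the other way were CTH, the last enzyme of cysteine synthesis from methionine, at 89.3, 124 and 104 in Control and 37.9, 35.7 and 27.9 in shARID1A.4, and CBS, the enzyme before it, with a log2 difference of -0.19. FGF21 had too few reads to be tested.

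Genes of neighbouring stress responses, chosen after the values were seen, did not all go one way. Of 8 genes known to respond to NRF2, the oxidative stress factor, HMOX1 rose the most, OSGIN1 rose 13-fold, NQO1 rose 6.45-fold from 1818, 1769.5 and 1745 to 10994, 11955 and 11469, and SRXN1 rose 4.05-fold. GCLM, which encodes the modifier subunit of the enzyme that begins glutathione synthesis, read 449.9, 424 and 441 in Control and 471, 445 and 428 in shARID1A.4, and did not pass the test. The median of the 8 genes against Control was 1.55 in shARID1A.4, 1.42 in shARID1A/B.2.3 and 0.49 in shARID1B.3. It was -0.79, -0.36 and -0.23 in shARID1A.2, shARID1B.2 and shARID1A/B.4.2. Chaperones of the endoplasmic reticulum were lower, HSPA5 by -0.40, HSP90B1 by -0.78 and PDIA4 by -0.93 on the log2 scale, whereas XBP1 and HERPUD1 rose 2.16-fold and 3.52-fold.

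DNA replication genes fell as a whole. All 40 tested were lower at an adjusted p under 0.05 and 26 of them over 2-fold, where 12% of all genes fell that far, with a median log2 difference of -1.13. TYMS, which makes thymidylate, was 3409.7, 3410.4 and 3359.5 in Control and 699, 679 and 715 in shARID1A.4, 4.86-fold lower. MCM10, which helps to start the replication fork, fell 3.61-fold, and the clamp loader subunit RFC3 fell 3.83-fold. GINS4, RRM1 and CDC6 fell by -1.62, -1.58 and -1.56 on the log2 scale, and the smallest fall of the list was that of GINS3, at -0.13.

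Mitotic genes fell as well. All 47 were lower and 30 fell over 2-fold, with a median of -1.08. MAD2L1, a spindle checkpoint protein, was 6399, 6097 and 6257 in Control and 1462, 1423 and 1484 in shARID1A.4. The checkpoint kinases BUB1B and BUB1 fell 3.29-fold and 3.26-fold, the kinetochore genes CENPI and NUF2 fell 3.08-fold and 2.96-fold, and PRC1, which bundles the microtubules of the central spindle, fell 2.86-fold.

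Some genes of these lists have a short known element in the promoter, and 4 promoters are shown because they carry such an element close to the start site of a gene that changed. The elements searched on both strands were the CHR element TTTGAA, E2F sites of the letters TTTCCCGC, TTTGGCGC or TTTCGCGC, and the ATF4 element TGATGNAA, in RefSeq windows (GRCh38.p14) from 250 bases before to 50 after each start. The E2F forms overlap each other in letters, and a match is a description of sequence and not evidence of binding. The last 150 bases before the start are printed, 5′ to 3′ on the strand of the gene, with the element, in either orientation, in capitals.
ASNS, ATF4 element, chr7:97872409-97872558 (-): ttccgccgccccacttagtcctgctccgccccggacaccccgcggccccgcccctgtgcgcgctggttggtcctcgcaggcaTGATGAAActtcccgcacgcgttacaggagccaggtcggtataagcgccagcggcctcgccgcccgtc
BUB1B, CHR, chr15:40160919-40161068 (+): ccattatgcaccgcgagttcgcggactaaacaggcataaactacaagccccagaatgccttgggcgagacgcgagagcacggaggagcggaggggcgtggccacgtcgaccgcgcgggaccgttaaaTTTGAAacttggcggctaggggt
PRC1, CHR, chr15:90994536-90994685 (-): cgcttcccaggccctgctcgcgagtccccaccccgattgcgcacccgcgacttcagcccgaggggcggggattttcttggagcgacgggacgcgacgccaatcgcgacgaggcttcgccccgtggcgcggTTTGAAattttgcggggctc
TYMS, E2F site, chr18:657503-657652 (+): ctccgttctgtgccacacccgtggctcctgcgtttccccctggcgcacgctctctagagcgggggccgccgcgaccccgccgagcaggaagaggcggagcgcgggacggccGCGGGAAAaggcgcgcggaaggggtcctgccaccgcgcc
The CHR letters were in 26 of 39 promoters of the mitotic list that the table holds (66.7%), against 15.4% of all 27305 promoters and 9.94% of the 12031 of genes tested. E2F sites were in 18 of 35 promoters of the replication list (51.4%), against 2.79% of all and 4.39% of genes tested, and the ATF4 element was in 5 of 28 promoters of the ATF4 list (17.9%), against 3.67% and 1.80%, so most promoters of that list lack these letters in this window.

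Upstream of these genes, G1 regulators were mostly lower. Of 10 G1 cyclins, kinases and RB proteins tested, 7 fell, 4 of them over 2-fold, and 2 rose. CCND1, the D-type cyclin that is highly expressed in neuroblastoma, was 39766, 39681 and 39769.6 in Control and 13802, 13741 and 13788 in shARID1A.4. CDK2, the kinase that drives entry into S phase, fell 3.72-fold, its partner CCNE2 fell 3.21-fold, and RB1 fell 2.22-fold. CCNE1 read 349.6, 398 and 350.3 beside 346, 368 and 360.5 in Control, which did not pass the test. Among E2F factors, E2F8 and E2F2 were lower by -1.73 and -1.23 and E2F6, a repressor, was higher by 1.04 on the log2 scale. E2F1 was 2748, 2843 and 2813 in Control and 1482, 1356 and 1362 in shARID1A.4.

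The CDK inhibitors did not rise as a group. Of 7 genes, 4 fell and 2 rose (57.1% and 28.6%), beside 36.6% and 37% of all genes. None that rose did so over 2-fold. CDKN1C, which encodes p57, was 291, 262 and 292 in Control and 53.4, 59.5 and 57.9 in shARID1A.4, the largest change of the list. CDKN1A, which encodes p21, read 139, 135 and 164 in Control and 167, 206 and 169 in shARID1A.4, an adjusted p of 0.0539 in limma, and the groups did not overlap. CDKN2A rose 1.41-fold. CDKN2B, at 20.0, 4.48 and 21.6 in Control and 27.2, 27.4 and 17 in shARID1A.4, differed by 0.82 on the log2 scale, and by 0.16 without Control replicate 2, when it no longer passed. In the list of p53 targets, 12 of 22 genes fell and 5 rose (54.5% and 22.7%). RRM2B, TP53INP1 and GADD45A were lower by -1.85, -1.80 and -1.56 on the log2 scale.

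Integrins, the receptors that tie cells to the extracellular matrix, were mostly lower. Of 21 tested, 15 fell and 2 rose, with 9 falling over 2-fold and a median of -0.84. ITGAV, the alpha chain of the vitronectin receptor, was 9692, 9164 and 9298 in Control and 1998, 1714 and 1873 in shARID1A.4. Its partner ITGB3 went from 179, 167 and 158 to 15.5, 22.6 and 19, and the alpha chains ITGA9, ITGA4, ITGA2 and ITGA6 were lower by -2.74, -2.59, -2.42 and -2.12 on the log2 scale. These groups were well apart. ITGB1, the common beta chain, changed far less, from 24712, 23850.3 and 24032 to 19428, 19634 and 19691. The integrins that rose were ITGB4 and ITGAE, by 0.61 and 0.20, and their adjusted p were 0.0223 and 0.0259 in limma.

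Of 26 genes for proteins inside the adhesion site, 16 fell and 7 rose (61.5% and 26.9%), beside 36.6% and 37% of all genes. Over 2-fold, 4 fell and 1 rose (15.4% and 3.85%), beside 12% and 9.32% of all genes, so the falls of that size were near the share of all genes. FERMT1, which encodes kindlin-1, an integrin activator of epithelia, rose 4.53-fold, from 189, 193 and 201 to 822, 903 and 914. Its relative FERMT2 fell by -0.90, as did the tensins TNS2 and TNS3, by -1.33 and -1.11, on the log2 scale. Of 15 cadherins, which join cells to each other, 9 were lower and 3 higher (60% and 20%), with a median of -0.63. CDH11, a mesenchymal cadherin, fell 6.27-fold from 1852, 1936 and 1894 to 302, 296 and 308, and CDH6 fell 3.04-fold. CDH7 rose from 17.6, 2.24 and 13.3 to 130.1, 129.6 and 141. CDH12 and CDH15 rose as well, by 2.61 and 1.90 on the log2 scale, and by 2.91 and 2.38 in edgeR. CDH5 was at 0 in all shARID1A.4 libraries and at 11.8, 2.24 and 6.16 in Control.

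**Figure D3:**
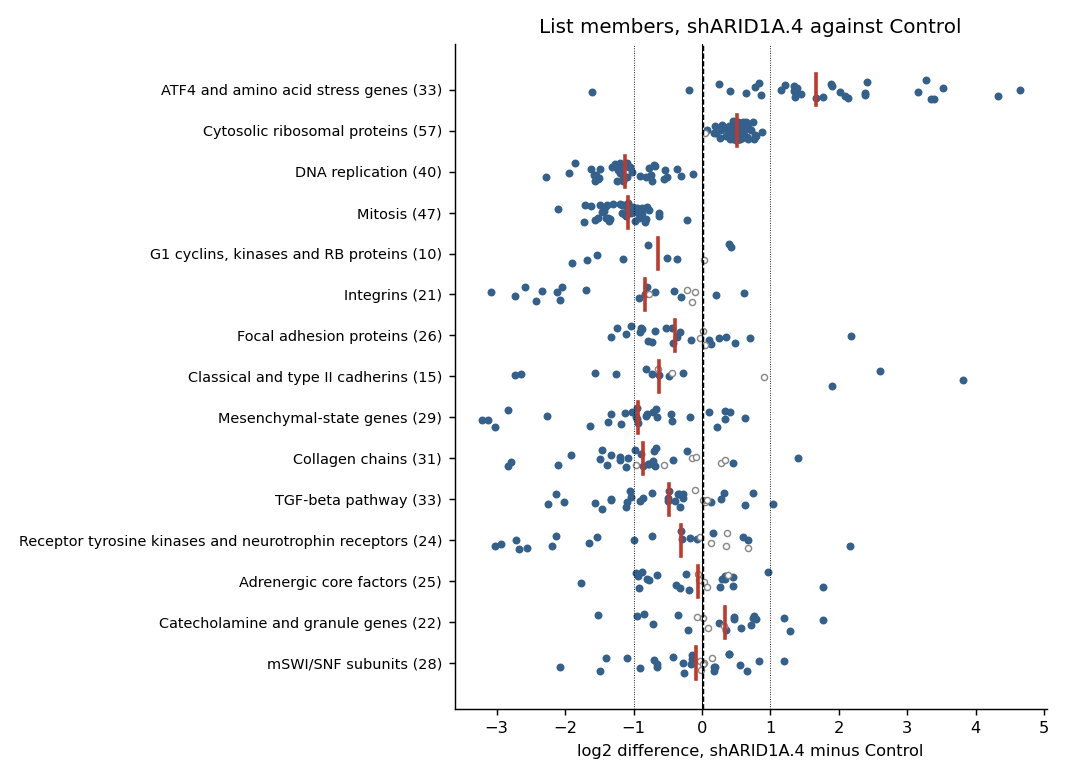
Log2 difference of shARID1A.4 minus Control (horizontal axis) for each tested member of 15 gene lists, with the number tested in parentheses. Filled points passed an adjusted p of 0.05, open points did not, red bars are list medians, the dashed line is the median of all genes and dotted lines mark 2-fold, and the ATF4 list has a median of 1.66 while those of DNA replication and mitosis are -1.13 and -1.08.

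Genes of the mesenchymal state fell more often than they rose. Of 29 tested, 23 fell, 11 over 2-fold, and 6 rose, none over 2-fold, with a median log2 difference of -0.94. YAP1, the coactivator of the Hippo pathway, was 531, 547 and 516 in Control and 73.8, 53.5 and 53.9 in shARID1A.4. Its well-known targets CCN1 and CCN2 fell 8.25-fold and 9.56-fold. LOXL2, a collagen crosslinking enzyme, went from 3879.5, 3779.7 and 3812 to 526, 552 and 529, the receptor PDGFRA fell 4.8-fold and the transcription factor ZEB2 fell 3.11-fold. VIM, the intermediate filament vimentin, was lower by -0.66 on the log2 scale.

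Of 31 collagen chains, 23 fell and 2 rose. COL6A3 went from 2820.1, 2889.9 and 2802 to 443, 398 and 385, and COL5A1 and COL16A1 fell 4.3-fold and 3.88-fold. COL5A2 was the exception over 2-fold, at 106, 91.8 and 116 in Control and 281, 269 and 278 in shARID1A.4. Markers of fibroblasts, which share genes with the collagen and mesenchymal lists, fell with them. All 8 were lower, 7 over 2-fold, and their summed value was 44775 to 45215 in Control and 14867 to 15145 in shARID1A.4. THY1 was 7865, 7789 and 8015 in Control and 1111, 1136 and 1075 in shARID1A.4, and none of these markers was at 0 in all 6 libraries. The part of other cells in this result was not tested.

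In the TGF-beta pathway 23 of 33 genes fell and 6 rose, 11 and 1 over 2-fold. The type I receptor TGFBR1 was 2618, 2428 and 2574 in Control and 581, 543 and 607 in shARID1A.4. The matrix protein TGFBI, named for its induction by this ligand, fell 4.74-fold, and the latent ligand binder LTBP1, the coreceptor TGFBR3 and the ligand TGFB3 were lower by -1.57, -1.46 and -1.34 on the log2 scale. BMP4 was low throughout, at 27, 25.7 and 29.8 in Control and 5.83, 4.76 and 7.98 in shARID1A.4. ID3, a target of BMP signals, was the member that rose over 2-fold, from 1451, 1393 and 1446 to 2908, 3039.5 and 2865. Laminins were split, 6 of 12 lower and 3 higher (50% and 25%), beside 36.6% and 37% of all genes. Over 2-fold, 1 fell and 1 rose (8.33% each), beside 12% and 9.32% of all genes. LAMA1 fell 5.29-fold. One of the higher chains, LAMA2, read 5.87, 6.72 and 6.16 in Control and 17.5, 15.5 and 7.98 in shARID1A.4 and did not pass without replicate 1 or 2 of shARID1A.4 or replicate 1 or 3 of Control, at differences of 0.75, 0.83, 0.91 and 0.94.

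Receptor tyrosine kinases and neurotrophin receptors held several of the larger falls, 9 of 24 over 2-fold. RET, the receptor of glial-derived neurotrophic factors and a marker of sympathetic cells, was 29923, 31384 and 30687 in Control and 3884, 3601 and 3812 in shARID1A.4, 8.14-fold lower. NGFR, a receptor of neurotrophins, went from 153, 170.1 and 169 to 21.4, 30.9 and 13. ALK, which is mutated in part of neuroblastomas, fell 3.14-fold, FGFR2 fell 6.39-fold, LTK fell 6.1-fold and FLT1 fell 6.59-fold. ERBB4 was the member that rose over 2-fold, at low values of 8.22, 3.36 and 1.03 in Control and 20.4, 23.8 and 13 in shARID1A.4.

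The adrenergic factors apart from MYCN did not move as a block. Of 25 tested, 8 rose and 12 fell (32% and 48%), beside 37% and 36.6% of all genes. Over 2-fold, 1 rose and 1 fell (4% each), with MYCN the one that rose. Of 22 genes for enzymes and granule proteins of catecholamine cells, 12 rose and 6 fell (54.5% and 27.3%), beside 37% and 36.6% of all genes. Over 2-fold, 3 rose and 1 fell (13.6% and 4.55%), beside 9.32% and 12% of all genes. TH, the rate-limiting enzyme of catecholamine synthesis, was 714, 659 and 660.4 in Control and 1775, 1599 and 1615 in shARID1A.4. MAOA, which degrades catecholamines, went from 143, 135 and 137 to 451, 501 and 478, the granule chaperone SCG5 rose 2.3-fold and the peptide VIP fell 2.87-fold. SLC18A2, the vesicular amine carrier, read 14.1, 14.6 and 15.4 in Control and 9.71, 5.95 and 7.98 in shARID1A.4, and its adjusted p of 0.0499 in limma lay at the threshold and was lost in most alternatives.

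Of 28 mSWI/SNF subunits, 14 were lower and 9 higher (50% and 32.1%), beside 36.6% and 37% of all genes. SMARCD1, a core subunit, was 5024, 4972 and 4889 in Control and 1889, 1881 and 1839 in shARID1A.4. DPF3 and DPF1, the neural paralogues of the DPF2 slot of BAF, fell 4.24-fold and 2.13-fold, and BCL7A rose 2.29-fold. The ATPase SMARCA4 read 16837, 17173 and 17139.5 in Control and 19708, 19214 and 18932 in shARID1A.4. In the polycomb list, CBX6 rose 3.13-fold and PHF19, an accessory factor of the PRC2 complex, fell 2.69-fold. Of its 27 genes, 16 were lower and 9 higher (59.3% and 33.3%), and 1 passed 2-fold each way.

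Cytosolic ribosomal protein genes rose together and by little. Of 57, 56 were higher and none passed 2-fold, with a median log2 difference of 0.51. RPL12 had the largest rise, from 17024, 16396 and 17189.8 to 29727, 32389 and 30555. Many of these genes have processed copies that can share reads, so single values are uncertain.

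The remaining lists held genes that rose and genes that fell. Of all genes tested, 37% rose and 36.6% fell, so counts near these shares do not mark a list. Interferon-stimulated genes were more often lower, falling in 18 and rising in 5 of 32 (56.25% and 15.6%), with a median of -0.64. Over 2-fold, 8 fell and 5 rose (25% and 15.6%), beside 12% and 9.32% of all genes. IRF7 was lower by -2.14 and ISG20 higher by 2.26 on the log2 scale. HERC5, 1 of the 5, read 2.35, 3.36 and 5.14 in Control and 7.77, 17.8 and 13 in shARID1A.4, and did not pass without shARID1A.4 replicate 2 or Control replicate 1, at differences of 1.31 and 1.35. In antigen presentation by MHC class I, 4 of 17 fell and 5 rose (23.5% and 29.4%), and the transactivator NLRC5 rose 2.55-fold. Of 14 BCL2 family genes, 8 rose and 5 fell, with a median of 0.35. The survival factors MCL1 and BCL2 fell 2.31-fold and 1.91-fold, MCL1 from 10642, 10768 and 10659 to 4659, 4543 and 4686, and of the genes that promote cell death BAK1 and BMF rose by 0.81 and 0.78 and BCL2L11 fell by 0.66 on the log2 scale. Cholesterol genes fell in 18 and rose in 10 of 32. The sterol exporter ABCA1 was 35.2, 20.1 and 36 in Control and 401, 445 and 442 in shARID1A.4, and STARD4, a sterol carrier, fell 4.91-fold. In axon guidance, 19 of 39 fell and 12 rose (48.7% and 30.8%), 6 and 2 of them over 2-fold. EPHA4 was lower by -2.46 and the netrin receptor DCC higher by 2.02. In the Notch list, 10 of 21 fell and 7 rose (47.6% and 33.3%), 3 and 2 of them over 2-fold. RBPJ, the DNA-binding effector, was lower by -1.48 and the ligands JAG2 and DLL3 higher by 1.44 and 1.39.

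The conditions labelled as ARID1A silencing were also compared directly, without the Control libraries. Between shARID1A.4 and shARID1A.2, 6936 genes were higher (37.3%) and 7145 lower (38.4%) at an adjusted p under 0.05, and 1777 (9.56%) and 2665 (14.3%) differed over 2-fold, close to the numbers against Control although both carry 1 treatment label. Scaled to total reads, the median of all genes moved from -0.03 to -0.18, and 39.2% of the genes called were higher in place of 49.3%. IGF2, the insulin-like growth factor, was 75.6, 79.3 and 72.4 in shARID1A.2 and 5999.6, 6427 and 5891 in shARID1A.4, with 607, 692 and 651 in Control. The difference between these 2 conditions was 6.31 ± 0.14 (SE) on the log2 scale, and its reads may overlap those of a read-through transcript with INS. Of the other genes highest in shARID1A.4, GDF15, HMOX1 and NIBAN1 differed by 6.03, 5.35 and 5.07, and CPLX3, a complexin of ribbon synapses, by 5.28.

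The genes lowest in shARID1A.4 beside shARID1A.2 included CXADR, PRLR, KIAA0040 and XKR5. CXADR, the coxsackievirus and adenovirus receptor of cell junctions, was 62.1, 60.6 and 67.9 in shARID1A.4, 639, 607 and 617 in Control and 1517, 1554 and 1453 in shARID1A.2. The prolactin receptor PRLR was low in shARID1A.4 at 10.7, 8.32 and 8.98 and in Control at 5.87, 3.36 and 8.22, and higher in shARID1A.2 at 212, 262 and 226. MAOA, a gene that rose against Control in shARID1A.4, was far higher still in shARID1A.2, with a mean of 4234 and a log2 difference of -3.15 ± 0.06 (SE) between them.

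Of 33 ATF4 genes tested, 32 were higher in shARID1A.4 than in shARID1A.2, 28 of them over 2-fold where 9.56% of all genes were, with a median difference of 1.72. The 8 NRF2-responsive genes, chosen after the values were seen, were all higher, with a median of 2.26. ATF5 had means of 4461 in shARID1A.4 and 445 in shARID1A.2, and CHAC1 of 2837 and 91.8. The replication and mitosis lists had medians of -0.12 and -0.21. In each, 1 gene was over 2-fold lower, and in the replication list 1 was over 2-fold higher. In these lists 20 of 40 and 31 of 47 genes were still lower in shARID1A.4, and 11 and 7 were higher. BUB1B was 1900.5, 1856 and 1954 in shARID1A.4 and 3340.5, 3419.6 and 3399 in shARID1A.2. PCNA, the replication clamp, went the other way, at 4282, 4407 and 4535 and 2662, 2718 and 2638. Of the neuroblast markers, 5 of 10 were over 2-fold higher in shARID1A.4, among them DBH, which makes noradrenaline, at 869.6 against 114. RET was higher in shARID1A.4 than in shARID1A.2 by 0.87 on the log2 scale. YAP1 was lower by -2.01, the lowest value of the mesenchymal list. That list had a median of -0.14, with 17 of 29 genes lower and 11 higher. Against Control, its medians were -0.94 in shARID1A.4 and -0.92 in shARID1A.2.

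**Figure D4:**
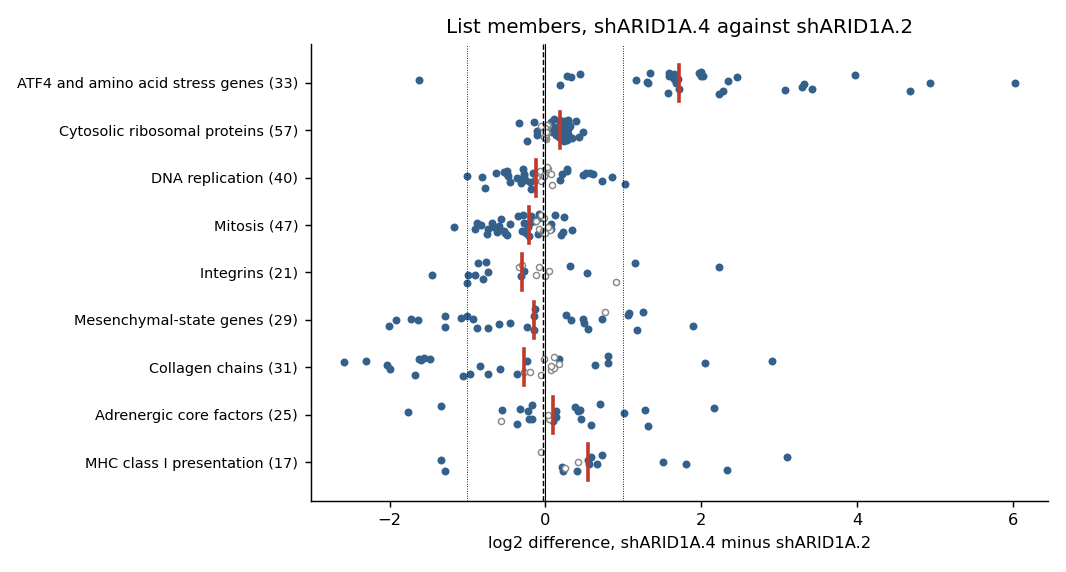
Log2 difference of shARID1A.4 minus shARID1A.2 (horizontal axis) for each tested member of 9 gene lists, with the number tested in parentheses. Filled points passed an adjusted p of 0.05, open points did not, red bars are list medians, the dashed line is the median of all genes and dotted lines mark 2-fold, and the ATF4 list has a median of 1.72.

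The condition whose HNRNPA1, HMOX1 and IGF2 values were nearest was shARID1A/B.2.3, and a direct comparison with it was added after these values were seen. It gave 5370 genes higher (28.9%) and 4953 lower (26.7%) in shARID1A.4, of which 505 (2.72%) and 732 (3.94%) differed over 2-fold. HNRNPA1, HMOX1 and IGF2, the genes for which this condition was chosen, differed by -0.13, -0.24 and -0.29 on the log2 scale, which is a description and no test. The ATF4 list had a median of 0.26, with 23 of 33 genes higher in shARID1A.4 and 4 lower, and 1 gene over 2-fold each way. ARID1A was lower in shARID1A.4 by -1.33 and ARID1B higher by 0.25. MYCN was higher by 0.94 ± 0.03 and RET lower by -2.26 ± 0.03, and ITGAV, YAP1 and CDH11 were lower by -1.16, -1.02 and -1.52 on the log2 scale. Of the collagen chains 21 of 31 were lower and 1 higher, whereas the replication and mitosis medians were 0.10 and 0.10. In these lists 19 of 40 and 26 of 47 genes were higher in shARID1A.4, and 8 and 4 lower. Of the cytosolic ribosomal protein genes, 56 of 57 were higher, with a median of 0.28 and none over 2-fold.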

How the data were processed

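RNA-Seq values of 21 libraries in 7 labelled conditions of 3 were used, with groups and replicates taken from the sample titles. For 60728 gene identifiers, the signal values deposited are reads scaled by a size factor of each library. The submitters' processing notes name STAR 2.5.3a, RSEM 1.3.0, DESeq2 1.26.0 and GRCh38, without their settings. Whole reads were recovered from the steps of the deposited signal (tolerance of 0.1 read) and totalled 27954334 to 41077638 a library. The authors' own comparison tables, with their log2 fold changes and p-values, were not used.

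Log2 of the deposited signal plus a pseudocount of 1 was fitted with limma 3.58.1 (trend) in all 21 libraries, with a coefficient per condition, over 18584 genes that passed edgeR's filter on low reads. As the deposited values are not raw counts, the count tests of edgeR 4.0.16 (TMM, quasi-likelihood) and DESeq2 1.42.0 were run on the recovered reads as alternatives. Differences on this scale understate changes of low genes. Adjusted p-values follow Benjamini and Hochberg, over all genes tested, and they measure only the spread between the triplicate libraries. A log2 difference beyond 1 is called over 2-fold, and linear folds are ratios of mean deposited values. The scripts were tested on simulated data.

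The part of the series described, the gene lists and the rule for naming genes were chosen with earlier results of these data known. The rule names ARID1A and ARID1B, the 8 largest rises and 8 largest falls against Control among protein-coding genes with an adjusted p under 0.05, a mean of at least 100 and groups that do not overlap, the 5 largest differences each way from shARID1A.2 by the same filter, and up to 6 called members of each of 30 lists plus defining members not called. Lists are described by counts and medians, with no set test. Counts against Control are to be read beside the 37% of all genes tested that were higher and the 36.6% lower. The comparison with shARID1A/B.2.3 and the NRF2, endoplasmic reticulum, MYC, hnRNP and TMEM108 genes were added after seeing the data. Alternatives were other tools, pseudocounts, scalings and filters, only the 6 libraries compared, a replicate block, and each library left out. Coordinates of genes are from GENCODE release 29 on GRCh38. Hairpin sequences were not analysed here, and some genes that the rule names are not reported here. R 4.3.3, Python 3.11.15, numpy 2.4.6, pandas 2.3.3 and matplotlib 3.10.9 were used.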

Additional observations from a re-analysis of the deposited data

Results flagged for a closer look

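For 9 of the genes named in the report the difference from Control went in opposite directions in shARID1A.4 and in shARID1A.2, with an adjusted p under 0.05 in each (limma). These genes were picked for their opposite directions, and some of them also for the size of this difference, so the direct contrast of shARID1A.4 minus shARID1A.2 is given as a description. On the log2 scale it was 6.31 for IGF2, 6.03 for GDF15, 5.35 for HMOX1, 5.28 for CPLX3, 4.94 for CHAC1 and 4.66 for ADM2, genes that rose in shARID1A.4 and fell in shARID1A.2. It was -4.55 for CXADR, -4.50 for KIAA0040 and -4.38 for RBM24, which fell in shARID1A.4 and rose in shARID1A.2. The 7 conditions hold 3 libraries each, too few to ask whether 1 library stood apart from its group by a test of gaps.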

How the results depend on the processing

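Counts of genes called against Control and against shARID1A.2 stayed within 1.5 times of those reported under the other tools, scalings and pseudocounts and with each library left out. The exception was the filter of at least 10 reads in each of the 6 libraries, which tests fewer genes. It left 991 genes over 2-fold higher against Control, 1598 lower against shARID1A.2, and 209 higher and 456 lower against shARID1A/B.2.3, and a pseudocount of 5 left 267 higher in the last. edgeR called 1800 genes over 2-fold higher and 2188 lower than Control, and DESeq2 1669 and 2167. With 1 library left out in turn, the range was 1700 to 1755 higher and 2205 to 2266 lower. Of 190 named genes with alternatives, none turned in direction against Control. A call was lost under some alternative for SLC18A2 (12 of 16), CDKN2B (7), LAMA2 (6), HERC5 (2) and CDKN1B (1), and gained for 2 genes, PRLR among them. The call of SLC18A2 was lost without replicate 2 or 3 of shARID1A.4 or without any 1 Control library. The medians of the mSWI/SNF, adrenergic, Schwannian and kidney epithelial lists changed sign under some alternative, and those of the other lists did not.

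Deviations of same-numbered shARID1A.4 and Control libraries correlated at -0.09, -0.06 and 0.00, and those of shARID1A.4 and shARID1A.2 at 0.13, 0.04 and -0.03. No shARID1A.4 library correlated best with the Control library of its own number. With shARID1A.2, replicates 1 and 2 of shARID1A.4 correlated best with their own number and replicate 3 did not. With 3 libraries a group, such values cannot exclude that same-numbered libraries were handled together. With the replicate number as a block, 1732 genes were over 2-fold higher and 2235 lower than Control, and 1780 and 2667 against shARID1A.2. Effects of a hairpin beyond its target cannot be told apart from those of the target within 1 condition. Low genes are limited by depth: MARCOL was at or near 0 in Control, CDH5 was at 0 in shARID1A.4, and FGF21 was near 0 in both.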

Other observations

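FERMT1, SMARCD1 and RBM24 had values in shARID1A.4 that stood with shARID1A/B.2.3 rather than with the other conditions, and they were chosen after these values were seen. FERMT1 had means of 879 in shARID1A.4 and 837 in shARID1A/B.2.3, and between 149.7 and 194 in the other 5 conditions. SMARCD1 had means of 1869.8 and 2114, against 3809 to 6987 in the others. RBM24 had means of 13.7 and 28.4, against 164 to 475. TH and DBH, enzymes of catecholamine synthesis, were also highest in these 2 conditions, at 1663 and 2071 for TH and 869.6 and 1131 for DBH, with Control at 678 and 529.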
